A study of Homo sapiens with 8 samples.

Results

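The genes described here are 40 interferon-stimulated effectors and STAT and IRF transcription factors, taken by symbol from a named list and found as 40 of the 58206 genes in the count table of a liver cancer cell line. The list leaves out the OAS enzymes, RNA sensors, TRIM proteins and MHC genes, which also respond to interferon. RNA was sequenced from Alexander1, an established epithelial line from a human hepatocellular carcinoma, in 4 parental and 4 derived libraries. The parental libraries, of genotype wt (Axin1 -), come from the line whose own Axin1, a scaffold protein that restrains canonical Wnt signalling, lacks its GSK3-binding region, so that the Wnt pathway is always on. The derived libraries, of genotype Axin1 +, come from a stable derivative given Axin1 from a plasmid by retrovirus and selected as clones in hygromycin B, and both groups share the endogenous deletion. The labels name no interferon treatment, and they do not state the number of clones behind the derivative. Their text on retroviral transfer and hygromycin stands on all 8 samples alike, and the genotype names the plasmid for the derived libraries alone. Restoration of Axin1, retroviral transfer and descent from selected clones therefore cannot be told apart in any difference given here.

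Interferons are secreted proteins that bind receptors on the cell surface and switch on kinases of the JAK family, which phosphorylate STAT proteins. Type I and type III interferons act through a complex of STAT proteins with IRF9, which binds a DNA element called the ISRE, whereas type II interferon acts through STAT dimers that bind an element called GAS. The genes so induced encode proteins that block viral entry, translation, replication and release, and many of them are also transcribed at a low level without added interferon. In liver cells the same genes answer to hepatitis viruses and to treatment with interferon.

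Of the 40 genes, 38 had at least 1 count and 29 were abundant enough to be tested. In the libraries labelled as restored, 10 of the 29 were higher and 0 were lower at an adjusted p under 0.05 in edgeR's quasi-likelihood test. The share called higher was 34.5%, where 10.4% of all 14289 tested genes were called higher and 8.77% were called lower. The list was chosen with earlier results of these data known, so this comparison is a description and not an independent test. At an unadjusted p under 0.05, 15 were higher and 1, ISG20, was lower, where 17.1% of all tested genes were higher and 16.4% lower at that threshold. The DESeq2 Wald test and limma-voom each called 13 higher and 0 lower after adjustment, the same 10 and IRF2, IFITM2 and LGALS3BP. The DESeq2 test called 12.4% of all tested genes higher and 12.1% lower, and limma-voom 10.6% and 9.17%. The 10 genes called by edgeR were SAMD9, IFI27, UBE2L6, IFI6, IFI35, HERC6, PARP14, STAT2, IRF1 and BST2, and their increases ran from 0.42 (BST2) to 2.60 (IFI27) on the log2 scale. ISG15 and the tested IFIT and IFITM genes, often used as markers of an interferon response, were not called by edgeR, although IFITM2 was called by the other tools. The median log2 difference of the 29 genes was 0.43, where that of all tested genes was 0.00, with 24 estimates above and 5 below 0. In 13 genes (44.8%) every restored-labelled library lay above every parental one, where 12.7% of all tested genes did so, and in 0 genes was the order the opposite, where 11.2% of all tested genes showed it. IFI27 reached the filter on low counts in 4 restored-labelled and 0 parental libraries, so its testing rested on the label in which it was high. Without it, 9 of 28 genes (32.1%) were called higher and the median stayed at 0.43. The count of 10 rested in part on single libraries: it was 5 without parental replicate 2 or restored replicate 3, 6 without restored replicate 2 or restored replicate 4, and 12 without parental replicate 1. The shares of all genes called higher were then 5.83%, 6.07%, 8.11%, 5.55% and 13.1%, in that order. SAMD9, IFI27, UBE2L6, IFI6 and IFI35 were called in each of these fits. In bulk RNA, fewer cells expressing a gene and less RNA per cell cannot be told apart.

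The libraries held 11232951 to 15263761 counts in the parental and 12372436 to 26400782 in the restored-labelled group. A count of 3 equalled 0.108 to 0.267 CPM, the unit used throughout, in which a count is scaled to the library total. AXIN1 itself averaged 52.4 CPM ± 3.49 (SD) in parental and 45.4 CPM ± 5.13 in restored-labelled libraries (n = 4 each), at an adjusted p of 0.267 in edgeR, and its groups overlapped. Its mRNA was not called higher in the libraries labelled as restored, so the labels alone carry the direction of each difference. Restored replicate 1 lay nearest to the parental libraries on the first principal component (22.2, against 48.7 to 56.8 for the other restored-labelled libraries), and its level of albumin, ALB, was 13.8 CPM against 445 to 681 CPM in the other 3. Parental replicate 1 stood apart on the second component. Of 12 hepatocyte and hepatoma markers, 11 were above 1 CPM in every library. The summed level of the 12 was 26900 to 31600 CPM in the parental and 18500 to 22800 CPM in the restored-labelled libraries. SERPINA1 led this sum, at means of 16100 and 10400 CPM, and was called lower, as was TF. TTR was called higher, and the other tested markers of these 12 were not called. Of 6 immune markers, PTPRC and CD3E had at most 3 counts in any library and the sum, mostly LYZ, was 422 to 949 and 673 to 921 CPM. The sum of 5 endothelial markers, mostly PECAM1, was 4.58 to 6.77 CPM in the parental and 34.1 to 58.5 CPM in the restored-labelled libraries, with KDR and TEK at 3 counts or fewer throughout. The sum of 6 fibroblast markers was 2.67 to 3.15 and 1.18 to 4.63 CPM, with COL1A2, DCN and PDGFRA at 3 counts or fewer throughout. The part of these marker levels in the results was not tested.

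**Figure D1:**
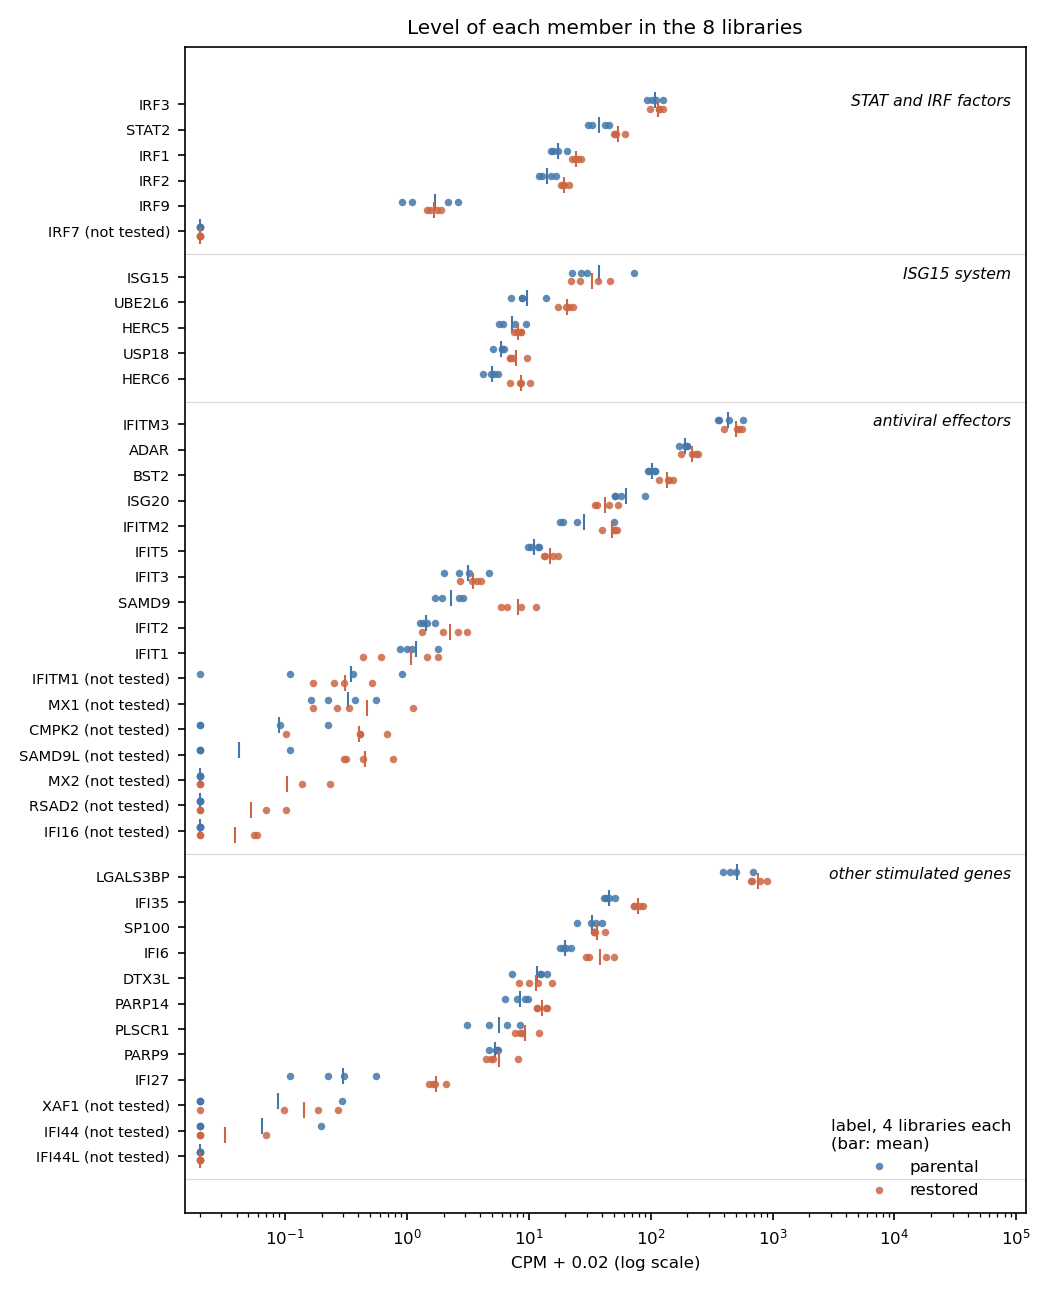
Level of each of the 40 genes in the 8 libraries, in CPM with 0.02 added so that zeros can be drawn, on a log axis; points are libraries and the short vertical bars are the means of 4. SAMD9, UBE2L6, IFI6, IFI35 and IFI27 have restored-labelled points clear to the right of the parental ones, and 11 genes marked as not tested lie at the low end.

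The promoters of these genes are where ISRE and GAS elements are usually found, and 33 of the 40 genes had a RefSeq start in GRCh38.p14 with upstream sequence. The 250 bases before each start were searched on both strands for an ISRE-like motif, written GAAANNGAAA, and a GAS-like motif, written TTCNNNGAA. Neither motif contains the other, although matches to them may share bases. The ISRE-like letters stood in 20 of the 33 genes, where 3.02% of all 35116 windows of this length, or 3.71% of 27305 genes, held them. The GAS-like letters stood in 8 of the 33 genes, where 6.57% of all windows and 8.09% of genes held them. Among the 10 genes called higher, 5 held an ISRE-like match (BST2, IFI27, IFI6, PARP14 and SAMD9) and 5 a GAS-like match (BST2, IFI27, IFI35, IRF1 and PARP14). Among the 14 tested genes that were not called and had a window, 10 held an ISRE-like match and 1, IRF9, held a GAS-like match. Of the 9 untested genes with a window, 5 held an ISRE-like match and 2 a GAS-like match. These matches are letters in a window and not measured binding. The genes not matched to a window were USP18, MX2, IRF2, IRF7, IRF3, IFITM2 and IFIT2.

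The last 160 bases before the start are shown for the 5 called genes with an ISRE-like match and, beside them, for ISG15, IFIT1 and IFITM3, which hold the same letters and were not called. Capitals mark the ISRE-like matches, in either orientation, and each sequence reads in the direction of transcription up to the base before the RefSeq start (GRCh38.p14).
IFI6, chr1:27672193-27672352, minus strand: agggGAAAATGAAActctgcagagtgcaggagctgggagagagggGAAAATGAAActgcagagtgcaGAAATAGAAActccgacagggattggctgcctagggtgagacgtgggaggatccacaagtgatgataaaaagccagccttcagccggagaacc
IFI27, chr14:94110576-94110735, plus strand: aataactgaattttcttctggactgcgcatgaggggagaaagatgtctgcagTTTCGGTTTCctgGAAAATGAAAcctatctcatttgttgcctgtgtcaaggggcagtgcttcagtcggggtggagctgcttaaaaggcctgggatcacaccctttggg
SAMD9, chr7:93117980-93118139, minus strand: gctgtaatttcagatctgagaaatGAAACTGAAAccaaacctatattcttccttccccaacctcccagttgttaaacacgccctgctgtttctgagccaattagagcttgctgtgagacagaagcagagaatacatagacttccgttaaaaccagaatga
BST2, chr19:17405631-17405790, minus strand: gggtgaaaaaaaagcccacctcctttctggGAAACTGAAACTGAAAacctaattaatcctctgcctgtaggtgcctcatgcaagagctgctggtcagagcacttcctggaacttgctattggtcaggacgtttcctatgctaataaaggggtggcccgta
PARP14, chr3:122680679-122680838, plus strand: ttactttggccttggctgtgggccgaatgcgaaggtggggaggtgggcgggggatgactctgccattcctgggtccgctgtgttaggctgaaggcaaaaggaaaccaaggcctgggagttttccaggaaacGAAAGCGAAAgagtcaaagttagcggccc
ISG15, chr1:1013337-1013496, plus strand: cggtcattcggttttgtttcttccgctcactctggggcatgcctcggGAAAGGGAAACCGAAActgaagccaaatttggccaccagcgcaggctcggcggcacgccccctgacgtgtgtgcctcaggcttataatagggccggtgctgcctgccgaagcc
IFIT1, chr10:89392463-89392622, plus strand: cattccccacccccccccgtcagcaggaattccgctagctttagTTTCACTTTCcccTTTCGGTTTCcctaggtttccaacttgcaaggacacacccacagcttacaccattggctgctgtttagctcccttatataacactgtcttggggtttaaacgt
IFITM3, chr11:320861-321020, minus strand: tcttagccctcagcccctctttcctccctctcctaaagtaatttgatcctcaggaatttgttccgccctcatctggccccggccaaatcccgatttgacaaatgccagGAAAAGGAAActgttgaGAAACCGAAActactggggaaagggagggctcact
IFI6 held 3 separate matches, starting from position -156 to position -93, where -1 is the last base before the start. IFI27 held a pair of matches in opposite orientations, and BST2 and ISG15 each held a pair that overlapped. IFIT1 held both of its matches on the opposite strand. PARP14 held its single match closest to the start, at position -29, and SAMD9 held 1 match at position -136. The same letters thus stood before genes that were called higher and before genes that were not.

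Among the 6 transcription factors, STAT2 and IRF1 rose, IRF2 lay just outside the threshold, IRF3 and IRF9 showed no call and IRF7 had no count. Of the 5 that were tested, 40.0% were called higher, where 10.4% of all tested genes were. STAT2 is the STAT protein particular to type I and III interferon signalling and the partner of IRF9. STAT2 (ENSG00000170581, chr12:56341597-56360155, minus strand) had, listed from replicate 1 to 4, 45.8, 33.0, 41.8 and 30.6 CPM in the parental and 61.2, 50.2, 51.2 and 52.3 CPM in the restored-labelled libraries. Every restored-labelled library was above every parental one. The log2 difference, restored-labelled over parental, was 0.51 (SE 0.15, 95% interval 0.18 to 0.84), at an adjusted p of 0.0384 in edgeR. IRF1 is a factor induced most strongly by type II interferon and activates many of the genes listed here. IRF1 (ENSG00000125347, chr5:132481609-132490798, minus strand) had 20.7, 15.8, 15.1 and 17.5 CPM in the parental and 23.8, 26.7, 25.5 and 22.4 CPM in the restored-labelled libraries. The groups did not overlap, and the log2 difference was 0.51 (SE 0.15, 95% interval 0.19 to 0.83) at an adjusted p of 0.0331 in edgeR. The 40 tested genes around IRF1, 20 on each side, had a median log2 difference of 0.63, above that of IRF1 itself. The call of STAT2 was lost without any 1 library other than parental replicate 1, and that of IRF1 without any 1 library other than replicate 1 of either label. Over all 18 alternatives the adjusted p ran from 0.0102 to 0.12 for STAT2 and from 0.00674 to 0.106 for IRF1. The use of strand in counting is not given in the sources used here, and C5orf56, whose exons overlap those of IRF1 by 1716 bases on the opposite strand, had 93 counts in all libraries together.

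IRF2, a factor that competes with IRF1 for the same sites, had 12.8, 12.1, 15.2 and 16.6 CPM in the parental and 18.9, 18.2, 19.5 and 21.4 CPM in the restored-labelled libraries. Its groups did not overlap, yet its log2 difference of 0.46 (SE 0.15) had an adjusted p of 0.0558 in edgeR and was not called. It was called by the DESeq2 Wald test (adjusted p 0.0257) and limma-voom (adjusted p 0.0486), within a range of 0.0257 to 0.168 over the alternatives. IRF3, the factor that RNA and DNA sensors activate before any interferon is made, was the most abundant of the 6 factors per length of exon. It had 126, 103, 93.4 and 111 CPM in the parental and 116, 127, 118 and 98.5 CPM in the restored-labelled libraries, and the ranges overlapped. Its log2 difference was 0.08 (SE 0.13, 95% interval -0.20 to 0.37), at an adjusted p of 0.698 in edgeR. IRF3 shares 734 bases of exon with BCL2L12 on the opposite strand, which had 7114 counts in all libraries. IRF9, the DNA-binding partner of STAT2, was scarce, at 0.890, 1.08, 2.14 and 2.58 CPM in the parental and 1.76, 1.90, 1.53 and 1.44 CPM in the restored-labelled libraries. The restored-labelled values all lay inside the parental range, and the log2 difference was -0.02 (SE 0.36, 95% interval -0.81 to 0.77) at an adjusted p of 0.974 in edgeR. IRF9 shares 1838 bases of exon with AL136295.5 on the same strand, so its reads may have been divided between the genes. IRF7, the factor that amplifies type I interferon production, had 0 counts in all 8 libraries, which allows a level of up to 0.108 to 0.267 CPM by counting error alone.

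**Figure D2:**
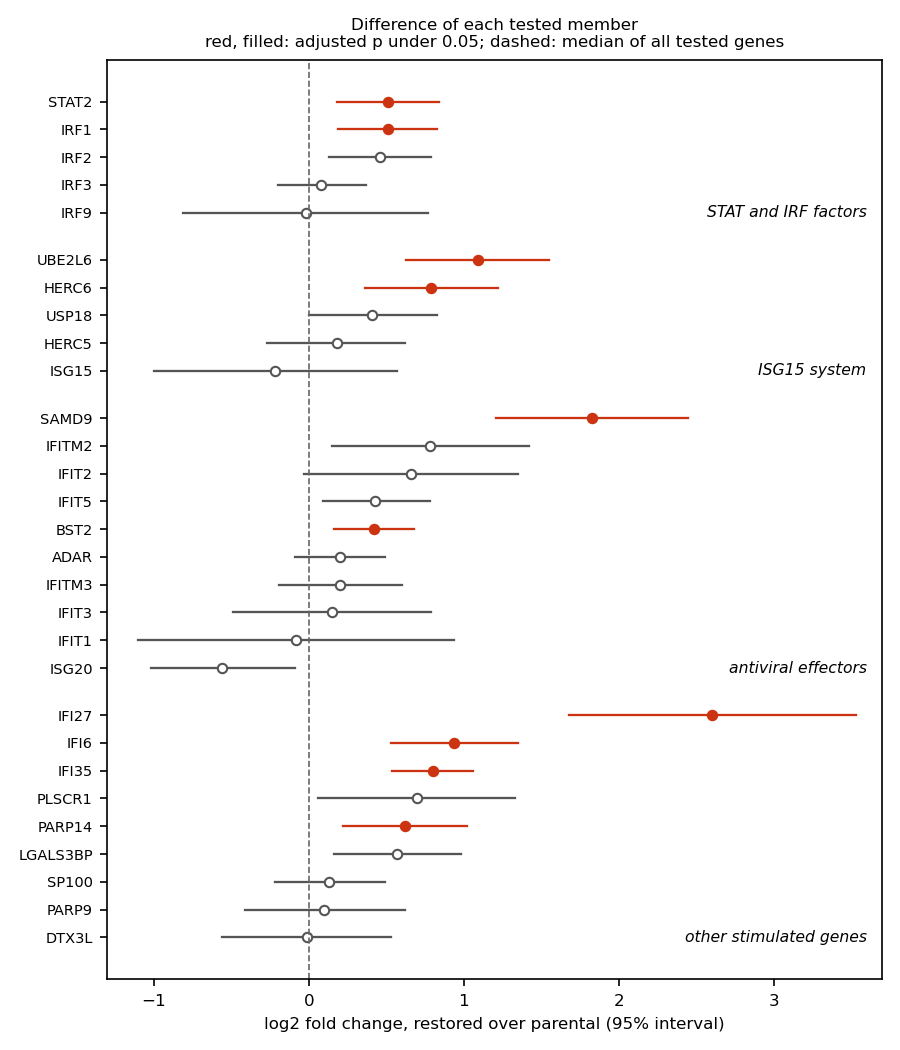
Log2 difference of the 29 tested genes, restored-labelled over parental, with 95% intervals; filled red points passed an adjusted p of 0.05 in edgeR and the dashed line is the median of all tested genes. All 10 red points lie to the right of the line, from BST2 at 0.42 to IFI27 at 2.60, and ISG20 at -0.56 is the lowest open point.

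The ISG15 system attaches the small ubiquitin-like protein ISG15 to other proteins and takes it off again. Of its 5 genes, the conjugating enzyme UBE2L6 and the ligase relative HERC6 rose, whereas ISG15, the ligase HERC5 and the protease USP18 were not called. All 5 were tested, and 40.0% were called higher, where 10.4% of all tested genes were. UBE2L6 (ENSG00000156587, chr11:57551656-57568284, minus strand) had 13.9, 8.73, 8.73 and 7.16 CPM in the parental and 17.4, 20.1, 23.1 and 21.4 CPM in the restored-labelled libraries. Every restored-labelled library was higher, and the log2 difference was 1.09 (SE 0.21, 95% interval 0.63 to 1.55) at an adjusted p of 0.00556 in edgeR. HERC6 (ENSG00000138642, chr4:88378739-88443111, plus strand) had 4.18, 4.87, 5.61 and 5.15 CPM in the parental and 7.03, 8.50, 8.62 and 10.2 CPM in the restored-labelled libraries. Its groups did not overlap, and its log2 difference was 0.79 (SE 0.19, 95% interval 0.36 to 1.22) at an adjusted p of 0.0178 in edgeR. HERC6 lost its call when parental replicate 2, restored replicate 3 or restored replicate 4 was left out. HERC5 lies beside it on chromosome 4 and is the main ligase of ISG15 in human cells. It ranged from 5.65 to 9.53 CPM in the parental and from 7.51 to 8.59 CPM in the restored-labelled libraries, with a log2 difference of 0.18 (95% interval -0.27 to 0.62). The difference between HERC5 and HERC6 was not tested.

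ISG15 itself had 72.4, 30.1, 22.5 and 26.8 CPM in the parental and 36.6, 46.1, 26.2 and 22.2 CPM in the restored-labelled libraries. Parental replicate 1 held the highest value of all 8, and the other 3 parental libraries lay within the restored-labelled range. The log2 difference was -0.22 (SE 0.36, adjusted p 0.709 in edgeR), and without parental replicate 1 it was 0.30 (adjusted p 0.382, within a range of 0.382 to 0.938 over the alternatives). The direction for ISG15 thus rested on a single library. USP18, which strips ISG15 from its targets and dampens the type I receptor, had 6.05, 6.03, 6.24 and 5.08 CPM in the parental and 9.65, 7.02, 7.05 and 7.38 CPM in the restored-labelled libraries. The groups did not overlap, but the log2 difference of 0.41 (SE 0.19) had an adjusted p of 0.15 in edgeR. UBA7, the activating enzyme that starts the same cascade, was kept in the list of signalling genes described further on and averaged 1.22 CPM ± 0.881 (SD) in parental and 3.98 CPM ± 1.42 in restored-labelled libraries (n = 4 each). Its log2 difference of 1.69 had an adjusted p of 0.0355 in edgeR, although its groups overlapped. That call was lost without any 1 of the libraries other than replicate 1 of either label.

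The antiviral effectors made up 17 of the 40 genes, of which 10 were tested. Of these 10, 2 (20.0%) were called higher, SAMD9 and BST2, and 0 were called lower. Over all tested genes 10.4% were called higher and 8.77% lower. The median log2 difference of the 10 was 0.31. SAMD9 is a cytoplasmic protein that blocks poxviruses and slows cell growth. SAMD9 (ENSG00000205413, chr7:93099513-93118023, minus strand) had 1.69, 2.84, 2.67 and 1.93 CPM in the parental and 8.54, 6.60, 5.86 and 11.5 CPM in the restored-labelled libraries. The lowest restored-labelled library lay above the highest parental one. Its log2 difference was 1.83 (SE 0.28, 95% interval 1.21 to 2.45), at an adjusted p of 0.00172 in edgeR. Its neighbour SAMD9L, a close relative at chr7:93130055-93148369, was too scarce to be tested. SAMD9L had 1, 0, 0 and 0 counts in the parental and 8, 5, 6 and 19 counts in the restored-labelled libraries. The ratio per scaled total was 22.7, with a counting interval of 3.83 to 919 at 95%, which covers counting error only. Without the filter on low counts it had an adjusted p of 0.00407 in edgeR. Both genes of the pair were thus higher in every restored-labelled library, while the tested genes around SAMD9 had a median log2 difference of -0.02. The 2 genes are similar in sequence, and how reads that fit both were counted is not given in the sources used here.

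BST2, or tetherin, holds budding virus particles on the cell surface. BST2 (ENSG00000130303, chr19:17402939-17405648, minus strand) had 109, 109, 97.0 and 95.3 CPM in the parental and 152, 139, 141 and 117 CPM in the restored-labelled libraries. Its groups did not overlap, and the log2 difference was 0.42 (SE 0.12, 95% interval 0.16 to 0.68) at an adjusted p of 0.0324 in edgeR. The genes around BST2 had a median log2 difference of 0.26. Its call was lost without any 1 library other than parental replicate 1 or restored replicate 4, and its adjusted p ran from 0.00704 to 0.0872 over the alternatives.

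The IFIT proteins bind viral RNA and block its translation, and IFIT1, IFIT2, IFIT3 and IFIT5 lie in a cluster on chromosome 10. IFIT5 had 9.88, 12.1, 10.5 and 11.9 CPM in the parental and 13.3, 13.6, 15.7 and 17.3 CPM in the restored-labelled libraries. Its groups did not overlap, and its log2 difference of 0.43 (SE 0.16) had an adjusted p of 0.0756 in edgeR. IFIT1, IFIT2 and IFIT3, the family members most used as markers of interferon action, were scarcer, at 0.859 to 4.72 CPM in the parental and 0.413 to 4.02 CPM in the restored-labelled libraries. Their log2 differences were -0.08, 0.66 and 0.15, with adjusted p of 0.923, 0.165 and 0.75 in edgeR. IFIT1 was spread over 0.413 to 1.79 CPM in the restored-labelled libraries, so its 95% interval ran from -1.10 to 0.94. None of the 4 IFIT genes was called.

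The IFITM proteins sit in cell membranes and hinder the fusion of viral envelopes, and their genes form a cluster near the end of chromosome 11. IFITM3 was the most abundant of the 29 tested genes per kilobase of exon, at 322 CPM in the parental and 371 CPM in the restored-labelled libraries. Per library it ranged from 355 to 577 CPM in the parental and from 399 to 561 CPM in the restored-labelled group, with a log2 difference of 0.20 (95% interval -0.19 to 0.60). IFITM2 had 50.2, 25.0, 19.2 and 18.0 CPM in the parental and 52.8, 50.0, 50.5 and 39.7 CPM in the restored-labelled libraries. Parental replicate 1 lay at the restored-labelled level and the other 3 parental libraries lay below all of it. Its log2 difference of 0.78 (SE 0.29) had an adjusted p of 0.0818 in edgeR, and without parental replicate 1 it was 1.21 with an adjusted p of 0.000412. It was also called by the DESeq2 Wald test (adjusted p 0.0446) and limma-voom (adjusted p 0.0313), and over the alternatives its adjusted p ran from 0.000162 to 0.182. IFITM1 had at most 10 counts in any library and was not tested, and it shares 351 bases of exon with IFITM2 on the same strand. The IFITM genes are near-identical in parts, so reads may have been divided among them.

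ISG20, a nuclease that degrades viral RNA, was the tested member with the lowest estimate. It had 90.5, 57.3, 51.3 and 50.6 CPM in the parental and 36.0, 53.5, 45.5 and 34.8 CPM in the restored-labelled libraries. Restored replicate 2 lay inside the parental range, and the log2 difference of -0.56 (SE 0.21) had an adjusted p of 0.0889 in edgeR. Without parental replicate 1 it was -0.33, and without the filter on low counts ISG20 was called lower, with an adjusted p of 0.0422, the lowest of a range that reached 0.237. The genes around ISG20 had a median log2 difference of -0.33. ADAR, which edits double-stranded RNA, averaged 190 CPM ± 13.8 (SD) in parental and 219 CPM ± 30.2 in restored-labelled libraries (n = 4 each) and was not called.

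Several of the classical effectors were at or near 0. The GTPases MX1 and MX2, the radical enzyme RSAD2 (viperin), its neighbour the nucleotide kinase CMPK2 and the DNA sensor IFI16 were not tested. MX1 had 6, 3, 4 and 2 counts in the parental and 31, 3, 3 and 8 counts in the restored-labelled libraries, and the groups overlapped. CMPK2 had 0, 3, 0 and 1 counts in the parental and 11, 1, 8 and 17 counts in the restored-labelled libraries, and these overlapped too. MX2 had 0 counts in all parental libraries and 6, 0, 0 and 3 counts in the restored-labelled ones. RSAD2 and IFI16 had 0 counts in the parental and 2 counts each in all restored-labelled libraries together. Without the filter on low counts, the adjusted p of these 5 genes in edgeR ran from 0.0694 (CMPK2) to 0.559 (MX1), and none was called. Their log2 differences in that fit ran from 0.69 (MX1) to 3.83 (MX2), with CMPK2 at 2.33. At such low counts the missed threshold does not show that the levels were equal.

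**Figure D3:**
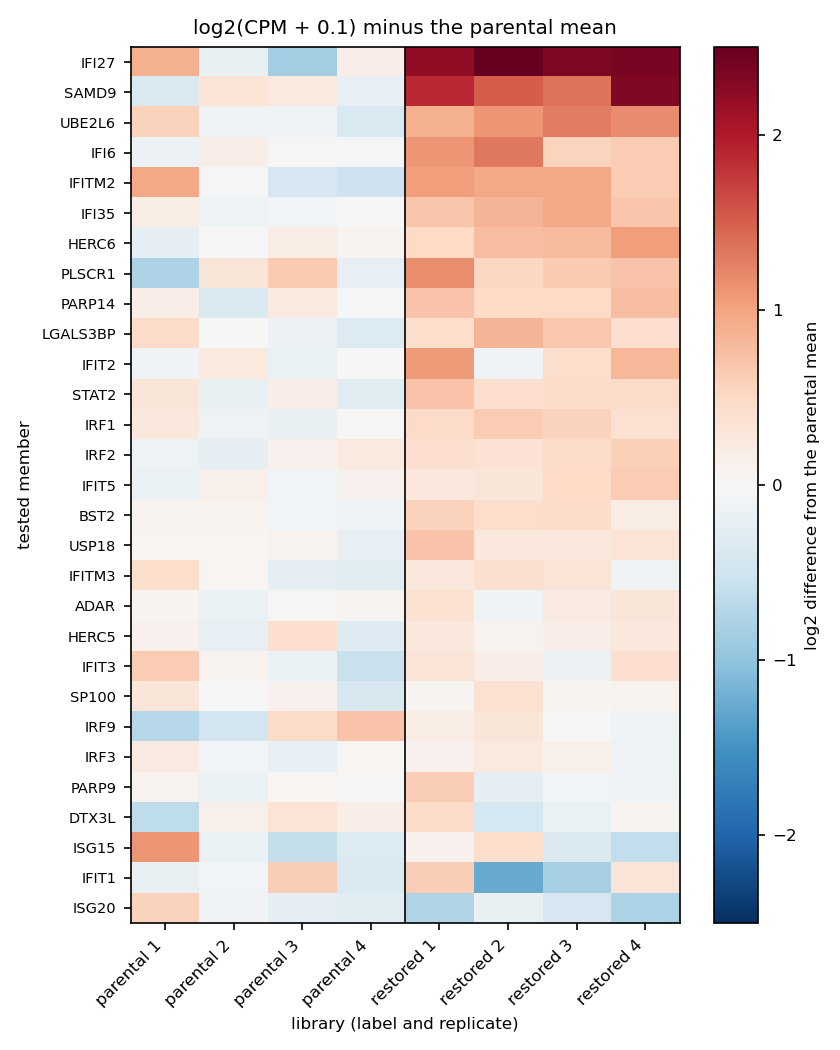
Difference of each tested gene in each library from the parental mean, on the scale log2(CPM + 0.1), with genes in rows and libraries in columns; red is above and blue below the parental mean. Red fills the 4 restored-labelled columns for IFI27, SAMD9, UBE2L6, IFI6 and IFI35, and parental replicate 1 is red for ISG15 and IFITM2.

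The remaining 12 genes encode proteins of other or less settled roles, and 9 of them were tested. Of these 9, 4 (44.4%) were called higher, IFI27, IFI6, IFI35 and PARP14, where 10.4% of all tested genes were. The median log2 difference of the 9 was 0.62. Both the share and the median include IFI27, which reached the filter on low counts in 4 restored-labelled and 0 parental libraries. Its testing rested on the label in which it was high. IFI27 is a small mitochondrial protein whose mRNA is used as a blood marker of viral infection. IFI27 (ENSG00000165949, chr14:94104836-94116698, plus strand) had 6, 3, 1 and 4 counts in the parental libraries, or 0.534, 0.203, 0.0891 and 0.286 CPM. In the restored-labelled libraries it had 1.51, 2.06, 1.63 and 1.68 CPM. The groups did not overlap, and the log2 difference was 2.60 (SE 0.42, 95% interval 1.68 to 3.53) at an adjusted p of 0.0022 in edgeR. Per kilobase of exon it was still among the scarcest of the tested genes in both groups, at 0.0671 and 0.414 CPM.

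IFI6, a protein of the endoplasmic reticulum that limits flavivirus replication, belongs to the same small family as IFI27. IFI6 (ENSG00000126709, chr1:27666061-27672218, minus strand) had 18.0, 22.3, 20.3 and 19.1 CPM in the parental and 43.0, 49.9, 29.2 and 31.1 CPM in the restored-labelled libraries. All restored-labelled libraries were higher, with replicates 1 and 2 above replicates 3 and 4. Its log2 difference was 0.94 (SE 0.19, 95% interval 0.53 to 1.35), at an adjusted p of 0.00642 in edgeR, and the genes around it had a median of -0.26.

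IFI35 is a cytoplasmic protein that joins a partner protein, NMI, in innate immune signalling. IFI35 (ENSG00000068079, chr17:43006725-43014456, plus strand) had 51.3, 41.4, 43.2 and 45.1 CPM in the parental and 73.2, 81.8, 86.7 and 73.3 CPM in the restored-labelled libraries. The libraries of each label lay close together and the labels were well apart. The log2 difference was 0.80 (SE 0.12, 95% interval 0.54 to 1.06), at an adjusted p of 0.00143 in edgeR.

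PARP14, PARP9 and DTX3L lie near each other on chromosome 3 and encode ADP-ribosyltransferases and a ubiquitin ligase that works with PARP9. PARP14 (ENSG00000173193, chr3:122680618-122730840, plus strand) had 9.34, 6.36, 9.89 and 8.02 CPM in the parental and 13.7, 11.7, 11.7 and 14.2 CPM in the restored-labelled libraries. Its groups did not overlap, and the log2 difference was 0.62 (SE 0.18, 95% interval 0.22 to 1.02) at an adjusted p of 0.037 in edgeR. PARP9 and DTX3L, a divergent pair that overlaps by 217 bases of exon, were not called, with log2 differences of 0.10 (95% interval -0.41 to 0.62) and -0.01 (95% interval -0.56 to 0.53). PARP14 lost its call without any 1 library other than parental replicates 1 and 3, and its adjusted p ran from 0.00996 to 0.113 over the alternatives.

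LGALS3BP, a secreted glycoprotein that binds galectins, was the second most abundant of the tested genes per kilobase of exon. It had 688, 500, 448 and 394 CPM in the parental and 675, 892, 787 and 663 CPM in the restored-labelled libraries, and only parental replicate 1 reached the restored-labelled range. The log2 difference of 0.57 (SE 0.18) had an adjusted p of 0.0524 in edgeR, and without parental replicate 1 it was 0.75 with an adjusted p of 0.00456. It was also called by the DESeq2 Wald test (adjusted p 0.0217) and limma-voom (adjusted p 0.0401), and over the alternatives its adjusted p ran from 0.00123 to 0.129. PLSCR1, a membrane lipid scramblase, had 3.11, 6.63, 8.46 and 4.65 CPM in the parental and 12.1, 7.68, 8.43 and 8.78 CPM in the restored-labelled libraries. The groups overlapped, and the log2 difference of 0.70 (SE 0.29) had an adjusted p of 0.118. SP100, a component of nuclear bodies, had a log2 difference of 0.13 (95% interval -0.22 to 0.49) and was not called. IFI44L had 0 counts in all libraries, IFI44 had 2 counts in the parental and 1 in the restored-labelled libraries together, and XAF1 had 4 and 11.

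The 29 tested genes also differed in how they varied among libraries of one label. In the parental group the median deviation of the genes from their parental means was 0.11, -0.06, 0.02 and -0.10 on the log2 scale in replicates 1 to 4. In the restored-labelled group it was 0.50, 0.40, 0.46 and 0.41, so that all 4 libraries lay above all 4 parental ones. The corresponding medians of all tested genes were between 0.00 and 0.03. Parental replicate 1 was the highest of its label for 14 of the 29 genes and parental replicate 4 the lowest for 12. The summed level of the 40 genes, led by LGALS3BP and IFITM3, was 2180, 1670, 1550 and 1480 CPM in the parental and 2210, 2420, 2270 and 1970 CPM in the restored-labelled libraries, and the groups overlapped through parental replicate 1. Because replicate 1 of each label stood apart from its group, the test was repeated without both, an analysis chosen after the data were seen. It then called 12 of the 29 genes higher and 0 lower, where 16.6% of all genes tested were called higher and 15.7% lower. The 12 held all 10 genes called before and IFITM2 and LGALS3BP.

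**Figure D4:**
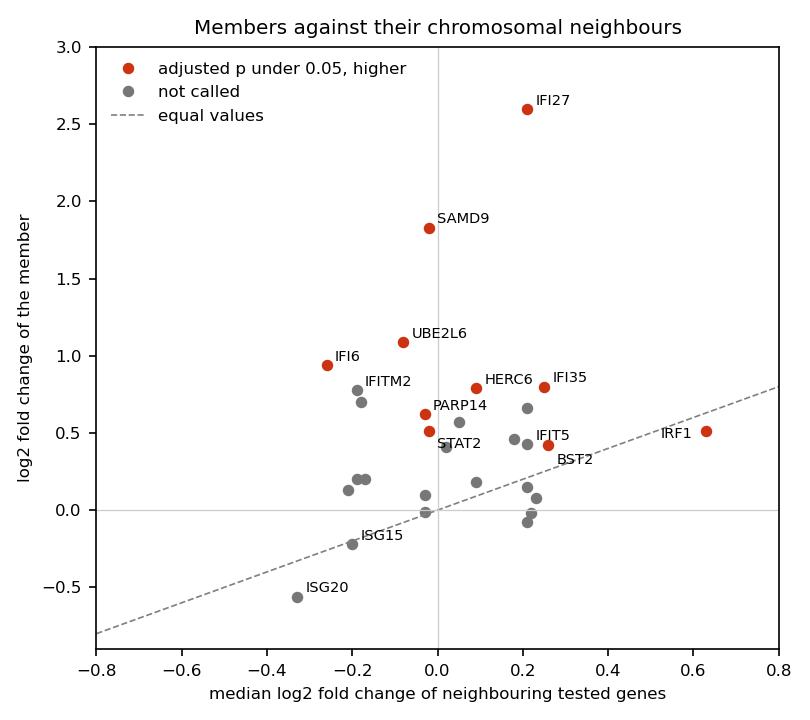
Log2 difference of each tested gene (vertical axis) against the median log2 difference of the tested genes beside it on the chromosome, up to 20 on each side with the 40 genes themselves left out (horizontal axis); the dashed line marks equal values. SAMD9, UBE2L6, IFI6 and IFI27 lie far above the line, IRF1 lies below it, and BST2 at 0.42 against 0.26 lies close to it.

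The other genes of the pathway were examined in a list of 42 signalling genes upstream of the effectors and a list of 40 other interferon-stimulated genes. Of the 9 interferon genes in the first list, 1 had a count, a single one, and 0 were tested. IFNA1 was the only interferon alpha gene among them, so the other interferon alpha genes were not examined. Of the 6 receptor genes, all tested, 2 were called higher (33.3%) and 1 lower (16.7%), where 10.4% and 8.77% of all tested genes were. IFNGR1, a chain of the type II receptor, rose from 53.4 CPM ± 8.17 (SD, n = 4) to 104 CPM ± 13.3 (SD, n = 4), a log2 difference of 0.96 at an adjusted p of 0.00149 in edgeR. IFNAR1, a chain of the type I receptor, rose from 66.3 CPM ± 6.59 (SD, n = 4) to 107 CPM ± 20.9 (SD, n = 4), a log2 difference of 0.69 with an adjusted p of 0.0107. IFNGR2, the other chain of the type II receptor, was called lower, with a log2 difference of -0.40 and an adjusted p of 0.0284. That call, too, was lost without any 1 library other than replicate 1 of either label. Around IFNAR1 and IFNGR2, both on chromosome 21, the tested genes had a median log2 difference of 0.31. Those around IFNGR1 had one of 0.26.

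Over the whole upstream list, 30 genes were tested, of which 7 were called higher (23.3%) and 1 lower (3.33%). Of all tested genes, 10.4% were called higher and 8.77% lower. The median log2 difference of the 30 was 0.19. TYK2, a JAK kinase of the type I receptor, had a log2 difference of 0.63 (SE 0.11, adjusted p 0.00419 in edgeR). STAT3, which chiefly answers to interleukins, had one of 0.86 (SE 0.12, adjusted p 0.000985). STING1, the adaptor of cytosolic DNA sensing, averaged 0.404 CPM ± 0.226 (SD) in parental and 1.42 CPM ± 0.128 in restored-labelled libraries (n = 4 each), with a log2 difference of 1.78 and an adjusted p of 0.0137. Like IFI27, it reached the filter on low counts in 4 restored-labelled and 0 parental libraries, so its testing rested on the label in which it was high. Its place among the 7 of 30 called higher rested on that label too. With a filter on a mean of 1 CPM, which STING1 did not reach, 6 of 29 upstream genes were called higher and 1 lower. Of all genes, that fit called 10.5% higher and 9.13% lower. The tested genes around STING1 had a median log2 difference of 0.48, and those around STAT3 one of 0.40. Of the list of other stimulated genes, 28 were tested. Of these, 8 were called higher (28.6%) and 4 lower (14.3%), where 10.4% and 8.77% of all tested genes were. The median log2 difference of the 28 was 0.07. Without parental replicate 2 or without restored replicate 3, only 4 of these genes were called higher and 2 lower. In the upstream list the same fits called 6 higher and 0 lower. Of all genes, these fits called 5.83% and 6.07% higher, and 4.63% and 4.6% lower, in that order.

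Among those other stimulated genes, APOL1 and APOL6, apolipoprotein L genes of chromosome 22, rose by log2 differences of 3.69 (SE 0.57, adjusted p 0.00164 in edgeR) and 1.08 (SE 0.16, adjusted p 0.00127). APOL1 was near the floor in the parental libraries, at 13, 3, 1 and 3 counts, against 3.12 to 6.64 CPM in the restored-labelled ones. It reached the filter in 1 parental and 4 restored-labelled libraries, and its log2 difference ran from 3.38 to 5.04 over the alternatives. TNFSF10, the death ligand TRAIL, rose by 0.71 (SE 0.17, adjusted p 0.0153), with an adjusted p of 0.0506 at most over the alternatives, without restored replicate 4. Of the guanylate-binding proteins, GTPases that attack intracellular microbes, GBP3 rose by 1.09 (SE 0.19, adjusted p 0.00353) and GBP2 had a log2 difference of -0.96 (SE 0.21, adjusted p 0.0117). PHF11, a nuclear zinc finger protein, had one of -0.76 (SE 0.17, adjusted p 0.012). The tested genes around GBP2 and PHF11 had medians of -0.34 and -0.37, in the same direction as these genes, and those around GBP3 one of -0.33, in the opposite direction. Calls in this list thus went in both directions, where the 29 tested genes of the main list were called in 1 direction alone. Without the filter on low counts, ISG20 of the main list was called lower. Both lists were chosen with earlier results of these data known, so their contrast is a description only. That difference between the lists was not tested.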

How the data were processed

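The members and lists were chosen with earlier results of these data known. Per the labels' protocols, column-purified total RNA was made into libraries with an mRNA kit. Per the submitters' processing notes, bcl2fastq, fastp 0.23.1, STAR 2.7.4 and GRCh38 were used, while the counting program, annotation and use of strand are not given in the sources used here. The authors deposited raw counts per gene, without normalization, and 0 columns belonged to no sample. Groups and replicate numbers come from the sample titles. No label says that the libraries of a group are separate cultures, so p-values measure only the spread between these libraries, which may be technical.

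GENCODE 29 (GRCh38) held 57943 of 58206 identifiers and gave coordinates, exon lengths and overlaps, and 57495 identifiers had a symbol. The test was edgeR 4.0.16 in R 4.3.3 (filterByExpr with minimum count 10 and total 15, TMM scaling, two-sided quasi-likelihood test without covariates), with Benjamini-Hochberg adjustment over 14289 genes. It was tested on simulated counts. Standard errors are the absolute log2 difference over the square root of F. CPM use TMM-scaled totals, and library deviations use log2 CPM with a prior count of 2. The SAMD9L ratio has an exact binomial interval (scipy 1.17.1). The naming rule took members that were called or whose groups do not overlap, the STAT and IRF factors, and at most 6 called genes from each pathway list by smallest p. Other genes were named with their values in view. Of the genes this rule took from the pathway lists, 1 is not reported here.

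Alternatives were other scalings (DESeq2 size factors, upper quartile, total counts), no filter or a mean of 1 CPM, DESeq2 1.42.0, limma-voom (limma 3.58.1), the replicate block, a threshold of 0.01 and each library left out. Leaving out replicate 1 of both labels was added after the data were seen.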

Additional observations from a re-analysis of the deposited data

Results flagged for a closer look

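In 5 of the 58 sets of 4 libraries (29 tested genes, 2 labels), 1 library lay far from the other 3 by Dixon's criterion for 4 values, and chance alone gives about 1 in 20. ISG15 was 72.4 CPM in parental replicate 1, against 22.5 to 30.1 CPM in the other parental libraries. ISG20 was 90.5 CPM in the same library, against 50.6 to 57.3 CPM. USP18 was 9.65 CPM in restored replicate 1, against 7.02 to 7.38 CPM in the other restored-labelled libraries. PARP9 was 8.11 CPM in that library, against 4.46 to 5.03 CPM. SP100 was 42.5 CPM in restored replicate 2, against 34.1 to 34.7 CPM.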

How the results depend on the processing

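Depth limits the 11 untested genes, and no setting measures the part of clonal descent. The count of members called higher, 10 of 29, was 13 with the DESeq2 Wald test or limma-voom (12.4% and 10.6% of all genes) and 12 with total counts only (12.1% higher, 6.07% lower), which shifted the median of all genes by 0.09. It was 5 at an adjusted p under 0.01, where 3.96% of all genes were called higher. Leaving out single libraries gave 5 to 12, with 5 without parental replicate 2 or restored replicate 3, 6 without restored replicate 2 or restored replicate 4, and 12 without parental replicate 1. The share of all genes called higher was then between 5.55% and 13.1%. UBE2L6, SAMD9, IFI6, IFI27 and IFI35 kept their call in all 18 alternatives. With the replicate block, 8 members were called higher (7.71% of all genes) and IRF1, BST2 and PARP14 lost their call while IFITM2 gained one. Libraries of the same number did not deviate together across genes, with correlations from -0.0629 to 0.227, so the numbers were not taken to pair them. With no expression filter, 11 members were called higher (6.11% of all genes) and 1, ISG20, lower, and the median over 38 members was 0.54 (0.49 over the 35 with a count in both labels). The median was 0.42 to 0.47 over the fits without a single library and 0.52 with total counts only. In the upstream list, 4 to 9 genes were called higher and 0 to 3 lower, and in the list of other stimulated genes 3 to 9 and 0 to 6. Over the same alternatives, 3.96% to 16.6% of all genes were called higher and 2.79% to 15.7% lower. The cause of these shifts was not tested. No gene named here reversed a call.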
